A study of Mus musculus with 2 samples.

Results

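The genes that build the spermatid and the sperm cell were examined in mouse embryonic stem (ES) cells with and without expression of CTCFL, the testis paralog of the zinc finger protein CTCF. The 34 genes were textbook genes of spermatid chromatin, the acrosome, the flagellum and the sperm surface, each taken from the probe set with its symbol as the 1 gene symbol on the platform. All 34 were measured, each by 1 probe set, among 19938 named genes. RNA was hybridized to Affymetrix Mouse Gene 1.0 ST arrays, and values are log2 signals after robust multi-array averaging (RMA), on which a difference of 1 is a doubling.

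Both arrays held RNA of ES cells with the reverse tetracycline transactivator at ROSA26 and a TRE-driven mCTCFL-V5-GFP transgene, selected with G418 and grown on gelatin-coated plastic in ES medium with LIF. The induced cells received doxycycline for 3 days and were sorted for GFP. The non-induced cells received no doxycycline and were not sorted. Clones were picked after selection, and how many clones gave the RNA is not given in the sources used here. There was 1 array per group, so no test could be made and no value has an error from replicates; doxycycline, sorting and CTCFL cannot be told apart. In RNA pooled from many cells, fewer cells with a transcript and less of it per cell cannot be told apart either.

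The labels were checked first. Ctcfl was at 9.44 with induction and 5.99 without, which is 3.45 apart. All 12 ES cell markers examined lay above the median of all gene values, with a median difference of -0.07, and Pou5f1, the core pluripotency factor gene, was at 11.98 and 11.96. Differences are given throughout as induced minus non-induced.

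Spermatids are the haploid cells that follow meiosis. They replace histones by transition proteins and then by protamines, form an acrosome from Golgi vesicles and assemble a flagellum, and much of this programme depends on the transcription factor CREM. ES cells do none of this, and several of the genes also serve other cells: Odf2 in the centrosome, Tekt1, Tekt2 and Spag6 in motile cilia, and Crem in many tissues.

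Most of the 34 genes gave dim signals in both arrays. The median of all gene values, 6.36, was used as a floor, and 32 of the 34 genes stayed under it in both arrays. The 2 that reached it were Odf2 and Prm3. Just under it were Spa17, at 6.31, and Crem, at 6.30, both in the non-induced array. A value under the floor does not show that a transcript was absent, since the arrays give no detection limit here and probe sets differ in brightness.

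None of the 34 genes was higher or lower by log2 1 or more. Over all 19938 genes 0.256% were higher and 0.958% lower by that size with 1 value at the floor or above. The 32 genes under the floor could not be counted by that rule, so these shares are a measure for Odf2 and Prm3 only. The share of all genes past log2 1 without a floor was not computed. At a size of log2 0.58 and with no floor, 4 of the 34 were higher (Smcp, Tekt2, Dkkl1 and Odf1), against 6.82% of all genes. By the same rule 2 were lower (Cage1 and Spata19), against 7.4%. All of these named genes lay under the floor. Of the 9241 genes under the floor in both arrays, 791 were higher and 572 lower by that size. With 32 added to each linear signal none of the named genes reached log2 0.58, and the widest was Dkkl1 at 0.48. In all, 21 of the 34 were above 0, or 61.8%, against 51.4% of all genes. The median difference was 0.14 and the mean 0.11, against a median of 0.01 over all genes. Other settings gave a smaller median for the 34 genes. With equal array medians it was 0.04, against -0.09 for all genes, since that setting lowers every gene by the same amount. There 52.9% of the 34 and 41.1% of all genes were above 0. The median of the 34 was 0.09 after lowess, 0.08 after 32 was added to each linear signal, and 0.06 relative to genes of like level. The differences of the 34 genes had an SD of 0.39 and ran from -0.60 to 0.84, and those of all genes had an SD of 0.41.

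**Figure D1:**
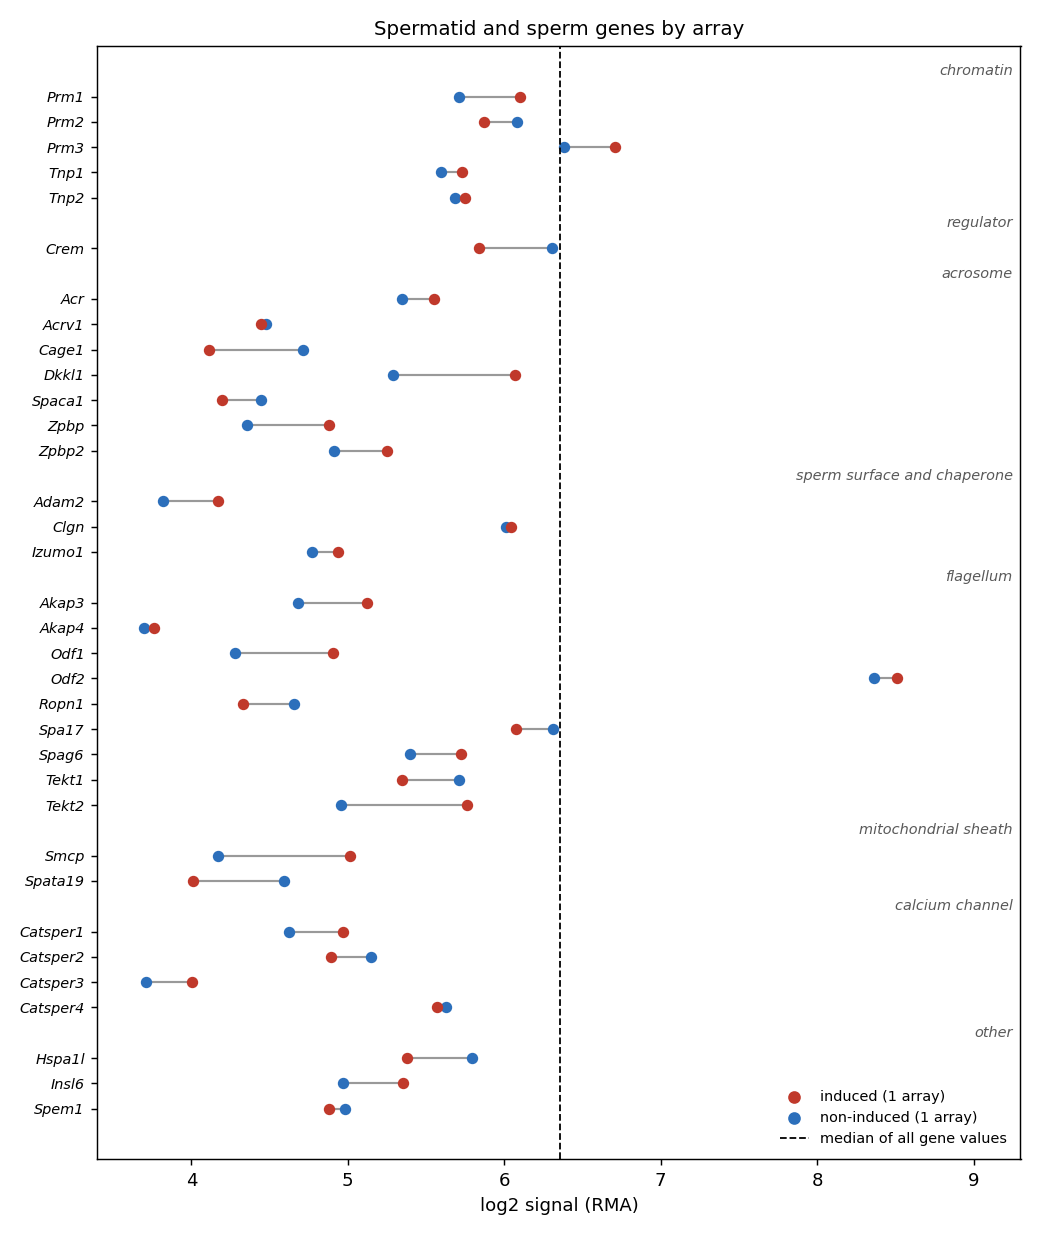
Log2 signal of the 34 spermatid and sperm genes in the induced array (red) and the non-induced array (blue), with a grey line between the 2 points of a gene and genes sorted by role. Dashes mark the floor (6.36), and only Odf2 and Prm3 lie to its right in both arrays.

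The chromatin genes were taken first. Tnp1 and Tnp2, which encode the transition proteins that displace histones, were at 5.73 and 5.75 in the induced array. Without induction they were at 5.60 and 5.69, so that the differences were 0.13 and 0.06. Both were nearly level between the arrays, and with both array medians set equal they differed by 0.03 and -0.04. Prm1, which encodes a protamine that packs DNA in sperm nuclei, was at 6.10 induced and 5.71 non-induced, a difference of 0.39. Prm2, which encodes the other protamine of mouse sperm, was at 5.87 and 6.08, a difference of -0.21. Prm3, the neighbouring protamine-like gene, was at 6.71 and 6.38, a difference of 0.33. Prm1, Prm2, Prm3 and Tnp2 lie side by side on chromosome 16, and within this cluster the differences went both ways. The genes on either side of the cluster, Socs1 and Rmi2, were higher by 0.44 and 0.26.

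Crem, which encodes the cAMP-responsive activator of Prm1, Tnp1 and many other spermatid genes, was at 5.84 induced and 6.30 non-induced, a difference of -0.47. It was the third lowest of the 34 differences in the deposited values, and over 5 other settings it ran from -0.60 to -0.32. The mean of probe sets and the added constant could not change its sign. Equal array medians lowered every difference. The probe set covers the gene as a whole and does not tell activator from repressor isoforms of Crem.

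The promoters of Prm1, Prm2 and Izumo1 are shown because they hold the letters that a reader would look for at such genes. They are the 250 bases before the transcription start in RefSeq, build GRCm38.p6, written 5′ to 3′ along the gene. Capitals mark an element like the cAMP response element (CRE) in Prm1, TGACTTCA at position -64, a TATA box in Prm2, TATAAA read on the other strand at position -31, and the CRE palindrome TGACGTCA in Izumo1 at position -96. Positions give the leftmost base of the match, with -1 as the last base before the start.
Prm1, chr16:10796824-10797073, minus strand: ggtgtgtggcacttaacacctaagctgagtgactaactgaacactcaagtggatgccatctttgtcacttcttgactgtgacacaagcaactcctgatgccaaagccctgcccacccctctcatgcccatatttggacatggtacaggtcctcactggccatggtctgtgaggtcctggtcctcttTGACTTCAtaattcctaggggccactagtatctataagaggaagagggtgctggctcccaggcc
Prm2, chr16:10792106-10792355, minus strand: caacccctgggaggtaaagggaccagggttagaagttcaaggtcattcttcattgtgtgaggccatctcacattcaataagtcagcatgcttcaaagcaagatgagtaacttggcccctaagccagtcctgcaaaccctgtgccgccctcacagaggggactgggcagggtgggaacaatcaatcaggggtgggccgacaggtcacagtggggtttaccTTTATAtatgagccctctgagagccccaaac
Izumo1, chr7:45621561-45621810, plus strand: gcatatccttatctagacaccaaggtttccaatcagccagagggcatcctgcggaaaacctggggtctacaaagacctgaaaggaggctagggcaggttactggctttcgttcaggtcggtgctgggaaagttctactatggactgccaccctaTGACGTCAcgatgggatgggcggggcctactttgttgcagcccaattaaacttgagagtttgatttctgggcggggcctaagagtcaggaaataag

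Promoter windows of 300 bases, 250 before and 50 after the start, were found for 27 of the 34 genes, and the one farthest upstream was used where a gene had several. Searched on both strands, TGACGTCA was in 1 of the 27 and in 2.48% of 15563 measured genes with a window. TGACTTCA was also in 1 and in 1.34% of all. TATAAA was in 1 and in 12.1% of all. These are matches of letters, and no binding was measured at them here.

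The acrosome genes came next. The acrosome is the vesicle over the sperm nucleus whose contents help the sperm through the zona pellucida, the coat of the egg. Acr, which encodes its protease acrosin, was at 5.55 induced and 5.35 non-induced, a difference of 0.21. Acrv1, an acrosomal vesicle protein gene, was at 4.44 and 4.48, a difference of -0.03. Spaca1, whose product is needed to shape the acrosome, was at 4.20 and 4.44, a difference of -0.25. All 3 differed by less than 0.25 in either direction. Zpbp and Zpbp2 encode related proteins of the acrosomal matrix that bind the zona. Zpbp was at 4.88 and 4.36, a difference of 0.52, and Zpbp2 at 5.25 and 4.91, a difference of 0.34. Dkkl1, an acrosomal protein gene related to the Dickkopf family, was at 6.07 and 5.29, a difference of 0.78. Cage1, a cancer testis antigen gene of the acrosome, was at 4.11 and 4.72, and its difference of -0.60 was the lowest of all 34. The 7 genes thus held values near both ends of the range, with 4 above 0 and a median of 0.21.

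Proteins of the sperm surface need chaperones in the endoplasmic reticulum before they reach it. Izumo1, which encodes the sperm protein that binds JUNO on the egg, was at 4.94 induced and 4.77 non-induced, a difference of 0.17. Adam2, which encodes fertilin beta, was at 4.17 and 3.82, a difference of 0.36. Clgn, which encodes the testis chaperone calmegin that folds fertilin, was at 6.04 and 6.01, a difference of 0.03. All 3 were above 0 in the deposited values, but Clgn was at -0.07 once the array medians were set equal.

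The flagellum genes include Odf2, one of the genes that also serve cells outside the testis. Odf2, which encodes a protein of the outer dense fibres and of the centrosome, was at 8.51 induced and 8.36 non-induced, a difference of 0.15. Odf1, the outer dense fibre gene of the testis, was at 4.91 and 4.28, a difference of 0.63. The related names stand for unrelated proteins, and both differences were above 0. Akap3 and Akap4 encode anchoring proteins that build the fibrous sheath. Akap3 was at 5.12 and 4.68, a difference of 0.44, and Akap4, on chromosome X, at 3.76 and 3.70, a difference of 0.06. Ropn1 and Spa17 encode sheath proteins with a docking domain for such anchors. Ropn1 was at 4.33 and 4.66, a difference of -0.32, and Spa17 at 6.08 and 6.31, a difference of -0.23. Akap3 and Akap4 were thus above 0 and Ropn1 and Spa17 below, all under the floor in the deposited values. Akap4 was nearly level and was at -0.04 once the array medians were set equal. Whether direction goes with anchor or docking partner was not tested.

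The axoneme, the microtubule core of the flagellum, is shared with motile cilia. Tekt1 and Tekt2 encode tektins, filaments inside its doublet microtubules. Tekt1 was at 5.34 induced and 5.71 non-induced, a difference of -0.37. Tekt2 was at 5.76 and 4.96, a difference of 0.80. The tektin genes therefore lay on opposite sides of 0. Spag6, which encodes a protein of the central pair, was at 5.73 and 5.40, a difference of 0.33. Its close paralog Spag6l was at 5.74 and 5.88, a difference of -0.14, and whether the probe sets read each other's transcripts was not tested. Of 8 markers of multiciliated cells 7 were above 0, against 51.4% of all genes, and 3 reached the floor. The 8 had a median of 0.20 and a sum of linear signals of 576 induced against 449 non-induced. Ccdc39 was below 0, at -0.37. Mcidas was highest of the 8 at 7.14 and 6.48, while the master regulator Foxj1 was nearly level at 5.80 and 5.78. The part of these markers in the tektin and Spag6 values was not tested.

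In the deposited values the widest difference of the 34 was in a gene of the mitochondrial sheath, which wraps the midpiece of the flagellum. Smcp, which encodes its cysteine-rich capsule protein, was at 5.02 induced and 4.17 non-induced, a difference of 0.84 or 1.80-fold. Spata19, which encodes a mitochondrial protein of the same sheath, was at 4.01 and 4.59, a difference of -0.58. The pair thus stood near opposite ends of the 34 genes. Both were among the dimmest genes of the arrays, and with a constant of 32 added on the linear scale, which damps differences between dim signals, Smcp differed by 0.36 and Spata19 by -0.22. Dkkl1 at 0.48 and Tekt2 at 0.45 were then wider than Smcp.

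CATSPER proteins form the calcium channel that drives hyperactivated swimming, and all 4 pore subunits are needed for the channel to exist. Catsper1 was at 4.97 induced and 4.62 non-induced, a difference of 0.35. Catsper2 was at 4.89 and 5.15, a difference of -0.26. Catsper3 was at 4.003 and 3.71, a difference of 0.29, and Catsper4 at 5.57 and 5.63, a difference of -0.06. The subunit genes were split, with 2 above and 2 below 0, and all were under the floor. Of the remaining genes, Insl6, an insulin-like gene of the testis, was at 5.35 and 4.97, a difference of 0.38. Hspa1l, a testis member of the Hsp70 family, was at 5.38 and 5.80, a difference of -0.42. Spem1, whose product is needed for shedding of spermatid cytoplasm, was at 4.88 and 4.98, a difference of -0.10.

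**Figure D2:**
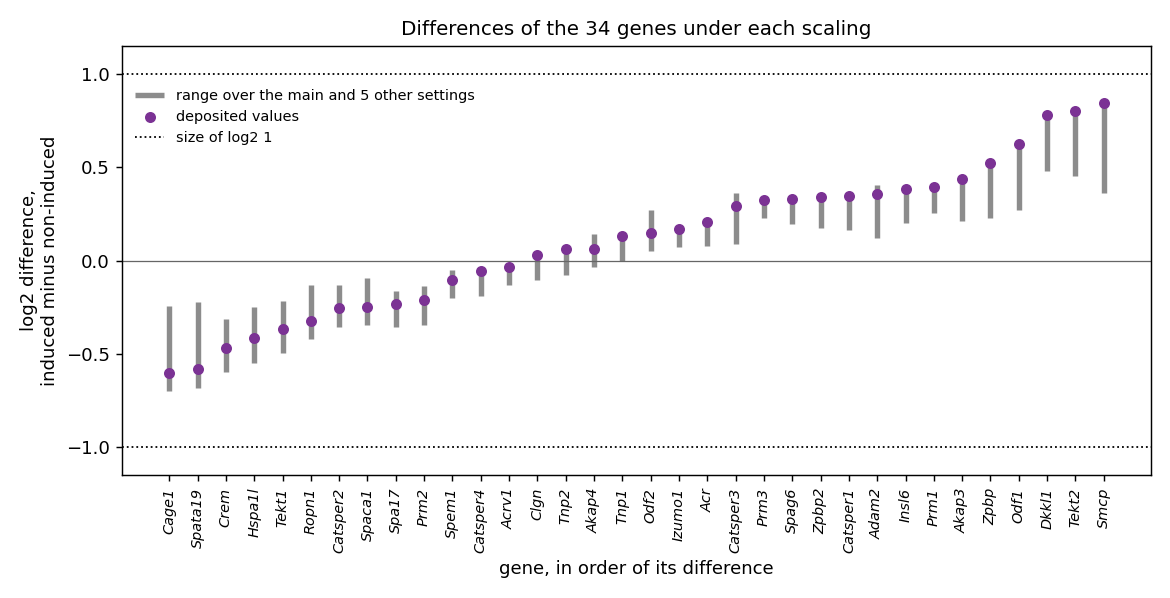
Log2 difference, induced minus non-induced, of the 34 genes in order (points), with the range over the deposited values and 5 other settings of scaling, probe set choice and added constant (bars). No bar reaches the dotted lines at 1 and -1, and the widest points are Smcp (0.84) and Cage1 (-0.60).

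Since most of the genes were dim, their differences were set beside those of genes of like level. All genes were divided by mean log2 signal into 4 groups of equal size, and 18 of the 34 genes were in the lowest group and 14 in the next. In the lowest group the central 95% of all genes differed by -0.92 to 0.83, and 17 of the 18 lay inside this range, the exception being Smcp at 0.84. In the next group this range was -0.74 to 0.86 and held all 14. Prm3, in the third group, and Odf2, in the highest, also lay inside their ranges. Dim genes were themselves slightly above 0 in these arrays: the median over all genes under the floor in both arrays was 0.06, and 0.10 over the 32 spermatid and sperm genes there. Of all genes under the floor 56.9% were above 0, and of the 32 genes 59.4%. In the lowest group the 18 genes had a median of 0.23 against 0.01 for all, and in the next group the 14 genes had 0.05 against 0.14, so the order was not the same in these groups. Olfactory receptor genes, taken after the values were seen as another set of dim tissue-restricted genes, had a median of -0.01 over 1015 genes. They were dimmer, with a median level of 4.04 in both arrays, against 5.30 induced and 4.98 non-induced for the 34 genes. They are therefore not a set of like level.

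**Figure D3:**
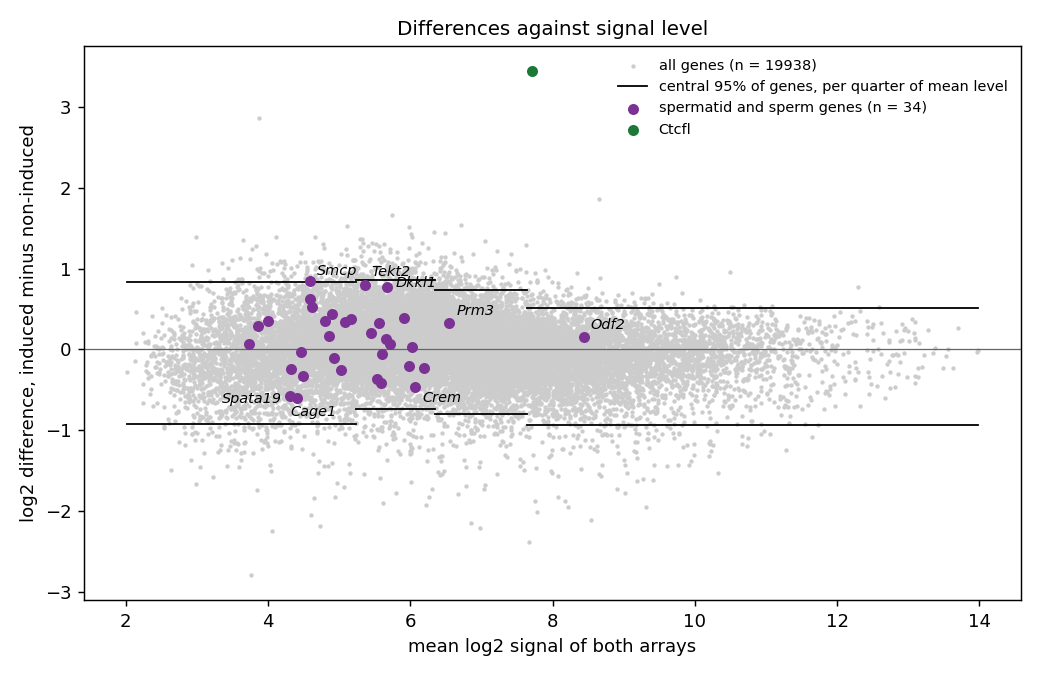
Induced minus non-induced log2 signal (vertical) by mean log2 signal over both arrays (horizontal) for 19938 genes (grey), with the 34 spermatid and sperm genes in purple, Ctcfl in green and the central 95% of genes in each of 4 groups by mean level as black lines. Of the 34 genes 33 lie between the lines, and Smcp lies just above the upper one.

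Neighbouring genes were also looked at. The 58 measured protein-coding genes next to the 34 in the RefSeq order had a median difference of 0.08, with 31 above 0 and a range of -0.74 to 1.14. Insl6 lies between Jak2, at 6.59 induced and 5.72 non-induced (0.86), and Rln1, at 6.81 and 6.21 (0.60). Cage1 lies between Ssr1, at 9.254 and 9.13 (0.12), and Riok1, at 8.01 and 8.75 (-0.74), which were on opposite sides of 0. Smcp lies between Ivl (-0.38) and Lce6a (-0.49), so there the neighbours were on the other side of 0. The part of neighbouring genes in any of these values was not tested.

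CTCFL binds DNA at letters much like those of CTCF, so the same windows were searched for a loose form of the CTCF core, CCNNNAGNNGGC, on both strands. It was in 3 of the 27 windows, or 11.1%, against 10.7% of all. The 3 windows are shown with the match in capitals, at position -35 in Smcp, -118 in Catsper2, where it reads on the other strand, and -71 in Odf2. No 2 of the searched motifs overlapped in the 27 windows.
Smcp, chr3:92589074-92589323, minus strand: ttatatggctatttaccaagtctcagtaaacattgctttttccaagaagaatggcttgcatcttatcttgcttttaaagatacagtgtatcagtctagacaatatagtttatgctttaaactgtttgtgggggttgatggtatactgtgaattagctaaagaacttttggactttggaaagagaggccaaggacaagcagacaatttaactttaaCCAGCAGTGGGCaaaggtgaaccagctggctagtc
Catsper2, chr2:121413793-121414042, minus strand: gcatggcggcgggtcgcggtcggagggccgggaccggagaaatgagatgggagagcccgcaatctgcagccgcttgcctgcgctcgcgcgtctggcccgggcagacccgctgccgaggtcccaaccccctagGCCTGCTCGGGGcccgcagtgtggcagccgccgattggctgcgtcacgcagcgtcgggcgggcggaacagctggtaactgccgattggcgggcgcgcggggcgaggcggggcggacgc
Odf2, chr2:29889470-29889719, plus strand: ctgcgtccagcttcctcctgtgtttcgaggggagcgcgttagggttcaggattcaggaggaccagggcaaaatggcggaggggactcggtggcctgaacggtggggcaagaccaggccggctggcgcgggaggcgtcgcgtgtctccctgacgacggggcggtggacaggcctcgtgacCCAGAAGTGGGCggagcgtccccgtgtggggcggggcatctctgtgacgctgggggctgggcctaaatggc

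The genes with this match were at 0.84 (Smcp), -0.26 (Catsper2) and 0.15 (Odf2), so they did not share a direction. Their promoters differ in make-up. That of Smcp had 0 CpG dinucleotides in its window of 300 bases and 38.0% G and C, that of Catsper2 had 41 and 74.7%, and that of Odf2 had 26 and 68.0%. Odf2 has 4 starts in RefSeq, of which the farthest upstream is shown.

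As a group the genes had promoters with few CpG. The median was 6 CpG over the 27 windows and 15 over those of all 15563 genes, and 16 of the 27 (59.3%) had 8 or fewer, against 36.0% of all. The limit of 8 was set after the counts were seen. Among all genes, those with 8 or fewer had a median level of 5.12 and a median difference of 0.06, and those with more had 7.14 and -0.01. The 16 sperm genes with few CpG had a median level of 4.88 and a median difference of 0.10, with 10 above 0. They included the 5 protamine and transition protein genes, Smcp, Akap3, Akap4 and Ropn1. The 11 with more CpG had a median level of 5.53 and a median difference of -0.23, with 5 above 0, and included Tekt1, Tekt2, Dkkl1, Spa17, Spag6, Cage1 and Odf2. Of the 11 only Odf2 reached the floor.

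**Figure D4:**
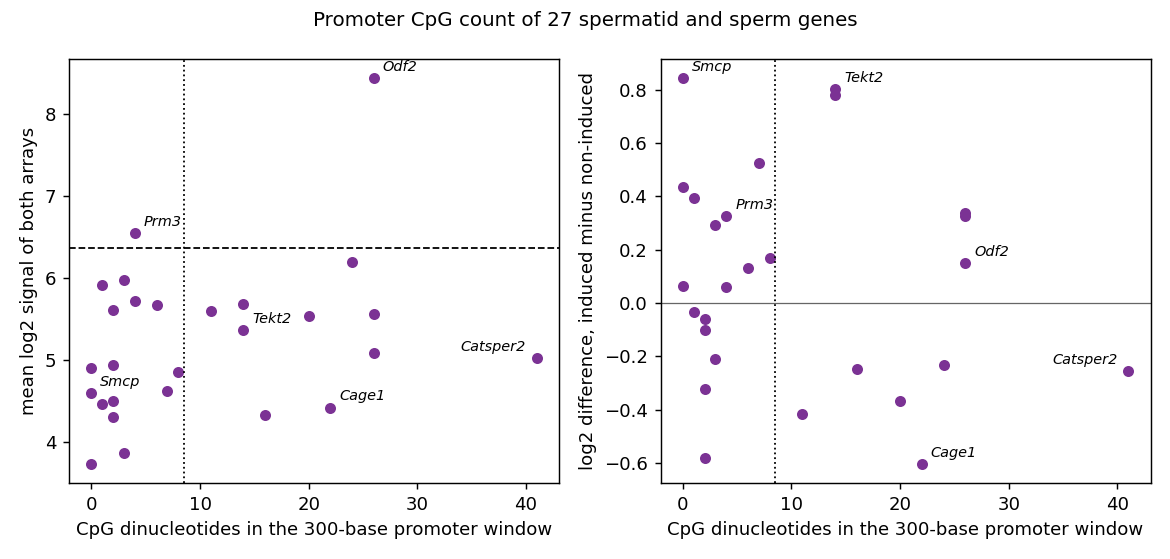
CpG count in the 300-base promoter window of 27 genes against their mean log2 signal (left, dashed line at the floor of 6.36) and against the log2 difference, induced minus non-induced (right); the dotted lines divide genes with 8 or fewer CpG from the rest. Odf2 and Prm3 lie above the floor, and both sides of the dotted line hold genes above and below 0.

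The promoters of Dkkl1 and Tekt2 are shown because these genes had the widest upward differences after Smcp in the deposited values and, unlike Smcp, have CpG, each 14 in the window of 300 bases. Capitals mark each CG in the 250 bases before the start, 11 in Dkkl1 and 13 in Tekt2.
Dkkl1, chr7:45211884-45212133, minus strand: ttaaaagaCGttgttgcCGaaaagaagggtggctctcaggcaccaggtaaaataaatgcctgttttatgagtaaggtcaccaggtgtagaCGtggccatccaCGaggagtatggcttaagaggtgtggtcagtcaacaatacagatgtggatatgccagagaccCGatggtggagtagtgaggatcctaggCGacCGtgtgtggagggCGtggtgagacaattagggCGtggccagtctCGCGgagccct
Tekt2, chr4:126325689-126325938, minus strand: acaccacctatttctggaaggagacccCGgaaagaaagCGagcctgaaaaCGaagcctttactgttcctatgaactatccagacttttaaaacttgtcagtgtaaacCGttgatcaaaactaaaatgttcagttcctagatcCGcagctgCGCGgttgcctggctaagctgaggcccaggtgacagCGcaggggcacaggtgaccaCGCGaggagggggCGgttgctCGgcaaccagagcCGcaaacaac

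Another 77 genes of spermatid development were listed to see whether the pattern extended beyond the 34, and 72 were measured. Of these, 44 were above 0 (61.1%, against 51.4% of all genes) and 28 below, and 20 reached the floor. Their median was 0.08, against 0.01 for all genes. With equal array medians it was -0.01, against -0.09 for all genes, since that setting lowers every gene by the same amount. By the size of log2 1 with the floor 0 were higher and 2 lower, against 0.256% and 0.958% of all genes. The lower genes were Kdm3a, a histone H3K9 demethylase gene needed for Tnp1 and Prm1 expression, at 7.55 induced and 8.63 non-induced (-1.08), and H1f6, the testis linker histone gene, at 8.23 and 9.29 (-1.06). H1f6 belongs to a family of similar histone genes, and whether its probe set reads others was not tested. Next lowest were Fhl5, which encodes the CREM coactivator ACT (3.92 and 4.67, -0.75), and Taf7l, a germ cell TFIID subunit gene (4.71 and 5.35, -0.65).

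Of 9 regulators in that list 6 were below 0, with a median of -0.10, and 33.3% were above 0. Crem was below 0 as well. Of 22 further flagellum genes 17 were above 0 (77.3%), with a median of 0.13. So were 6 of the 9 among the 34 genes (66.7%), with a median of 0.15. Of all genes 51.4% were above 0, and of those under the floor in both arrays 56.9%. Equal array medians lower each of these differences. The highest of all 72 genes were Oaz3, which encodes a testis antizyme (5.10 and 4.28, 0.82), and Septin4, a gene of the sperm annulus (6.03 and 5.31, 0.72). Next were Acrbp, which encodes the proacrosin binding protein (6.64 and 6.01, 0.63), and H1f7, a spermatid linker histone gene (6.45 and 5.90, 0.55). None of these reached log2 1. The 26 acrosome and surface genes had a median of 0.05 and the 7 genes of ion channels and signalling 0.03. The 8 nuclear and chromatin genes, which include Kdm3a and H1f6, had a median of 0.17 and a mean of -0.11, with 5 above 0 and 3 below.

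**Figure D5:**
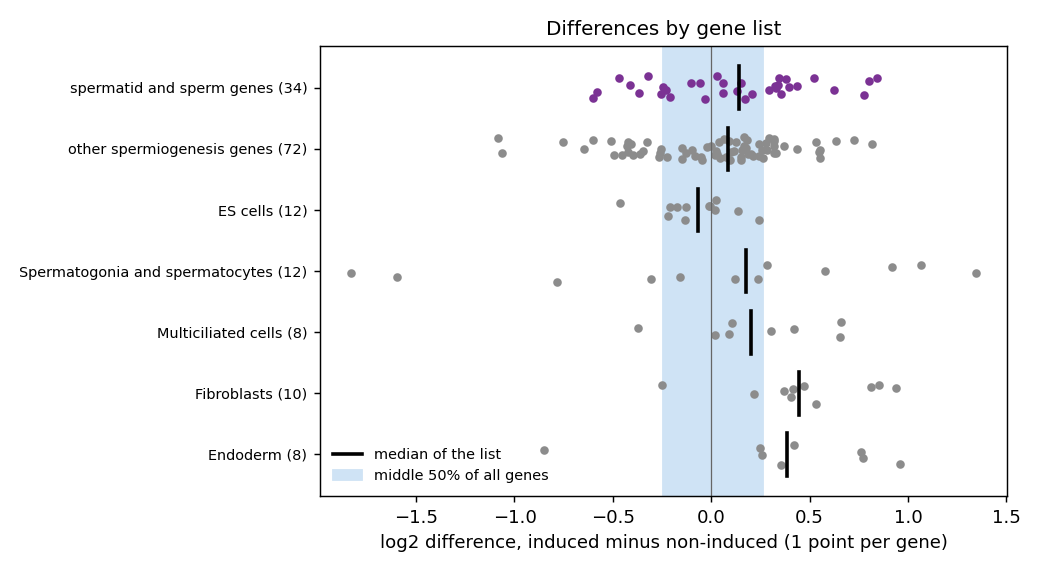
Induced minus non-induced log2 signal (points, 1 per gene) in the 34 spermatid and sperm genes, in 72 other spermiogenesis genes and in 5 marker lists, with the median of each list (bars) and the middle 50% of all genes (band). The 34 genes spread from -0.60 to 0.84 around a median of 0.14, and spermatogonia and spermatocyte genes spread from -1.83 to 1.35.

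Marker genes of earlier germ cells spread more widely than the spermatid and sperm genes. The 12 markers of spermatogonia and spermatocytes had an SD of 0.996 against 0.39. Past log2 1 with the floor, 2 were higher (Rec8 at 1.35 and Gfra1 at 1.06), against 0.256% of all genes. By the same rule 2 were lower (Sycp3 at -1.83 and Sycp1 at -1.60), against 0.958% of all genes. This contrast of spreads was not tested, and 7 of the 12 but only 2 of the 34 reached the floor. Markers of other cell types also lay mostly above 0, where 51.4% of all genes lay. Of 10 fibroblast markers 9 were above 0 (median 0.44, sum of linear signals 4156 induced and 3582 non-induced). Of 8 endoderm markers 7 were above 0 (median 0.39, sums 7329 and 4419). Apoe, by far the brightest of these 8 at 12.68 and 11.91, made up most of both endoderm sums. Foxa2 was the endoderm marker below 0, at 5.83 and 6.68 (-0.85). All 10 fibroblast and 6 of the 8 endoderm markers reached the floor, and their part in the values of the 34 genes was not tested.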

How the data were processed

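The values deposited by the authors are log2 signals for each probe set on each array, made with RMA (background correction, quantile normalization and probe summary) from 300 ng of total RNA per array; RMA narrows differences between dim signals. The log2 unit was taken from the range of the values, 1.36 to 14.5. The annotation build and software version: not given in the sources used here. Arrays give no counting error, and 1 array per group limits the precision.

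Of 35557 probe sets 21789 had 1 gene symbol and were used; 1621 had several and 12147 none. Current symbols came by gene identifier from RefSeq (GRCm38.p6) for 21698; the rest kept the platform symbol. A gene with several probe sets took the one with the highest mean, which gave 19938 genes. A gene counted as higher or lower at log2 1 with its higher value at or above the median of all gene values. All 34 genes were named, and of the other spermiogenesis genes the 4 widest each way. Socs1, Rmi2, Jak2, Rln1, Riok1, Ivl, Lce6a, Spag6l, Apoe, Foxa2 and Ccdc39 were named after their values were seen. So were the 4 germ cell markers past log2 1. The genes, lists and sizes were chosen with earlier results of these data known. Alternatives were centring, lowess (fraction 0.3), quantile normalization, the mean of probe sets, a constant of 32, a size of log2 0.58 and other floors. The steps were tested on simulated data with known shifts only in genes above the floor, so shifts in dim genes were not tested. Python 3.11.15, numpy 2.4.6, pandas 2.3.3, statsmodels 0.14.6 and matplotlib 3.10.9 were used.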

Additional observations from a re-analysis of the deposited data

How the results depend on the processing

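With the floor, 0 of the 34 genes were past log2 1 in the 5 settings of scaling, probe set choice and added constant. Only the 2 to 4 genes that reached the floor could be counted there, so for the others this was fixed in advance. Without regard to the floor, the differences over these settings lay between -0.70 (Cage1) and 0.84 (Smcp). On the deposited values 0 were past log2 0.58 with the floor; after lowess Crem reached the floor and was at -0.60. On the deposited values without a floor, 0 were past log2 1. With the 75th percentile as the floor 0 were as well, but only Odf2 reached that floor. The median difference of the 34 genes was 0.04 after centring of each array, 0.09 after lowess or quantile normalization and 0.08 with the constant of 32, and 0.06 relative to genes of the same level group. Centring moved the median of all genes from 0.01 to -0.09, and 18 of the 34 were then above 0 (52.9%) against 41.1% of all genes. The median of the other spermiogenesis genes turned from 0.08 to -0.0141 after centring. Of the 21 genes above 0, 17 kept their sign in the 5 settings of scaling, probe sets and constant. Clgn, Tnp1, Tnp2 and Akap4 did not, and the 13 below 0 kept theirs. The mean of probe sets could not change a sign, since each gene had 1 probe set, and neither could the constant. Centring lowered every difference, so it could not turn a gene that was below 0. The number at or above the floor was 4 after centring, lowess or quantile normalization, with Spa17 and Crem added, and 18 with a floor at the 25th percentile. No paired analysis was possible because each group had 1 array, and for the same reason no array could be left out.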
